A study of Mus musculus with 18 samples.

Results

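CD8+ T cells whose Cebpg gene had been targeted with CRISPR/Cas9 (Cebpg knockout, KO) were compared with CD8+ T cells targeted at Rosa26, both without halofuginone, across all 14695 genes of the deposited count table. The comparison rests on 6 of the 18 libraries in the series, 3 Cebpg KO and 3 Rosa26, chosen by the genotype and treatment in their labels. All libraries were made from polyA RNA of mouse primary cells of spleen and lymph node, cultured for 24 hours with or without the drug. A further 9 libraries, 3 per group, were used to place the comparison: Cebpg KO with halofuginone, Rosa26 with halofuginone, and Atf4 KO without the drug. Rosa26 is a neutral locus commonly targeted as a control, and every group, Rosa26 included, carried a CRISPR/Cas9 targeted site. The sources used here give no strain, age, sex, guide sequence, time between targeting and culture or share of edited cells, and the labels leave it unsaid whether replicate libraries had separate mice or cultures as their source. The p-values therefore measure a spread between libraries that may be technical. This spread was estimated over all 18 libraries of the series, which include 3 of Atf4 KO with halofuginone.

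Cebpg encodes C/EBPγ, a basic leucine zipper protein that has a DNA-binding domain but lacks a classical activation domain and acts as a dimer with other leucine zipper proteins. One of its partners is ATF4, the transcription factor whose translation rises in the integrated stress response, for example when an amino acid is scarce. Heterodimers of the pair bind the composite C/EBP-ATF element of genes for amino acid synthesis, amino acid import and tRNA charging. Activated CD8+ T cells grow and divide quickly and draw on these same supplies, as well as on glycolysis and lipid synthesis.

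The 3 Cebpg KO libraries held 15.1 to 17.9 M (mega) counts and the 3 Rosa26 libraries 17.5 to 18.8 M, and no 2 libraries of a group agreed within sampling noise. Cebpg mRNA was 56.7, 58.5 and 53.9 CPM (counts relative to the TMM-scaled library size) in Cebpg KO libraries, against 52.84, 55.15 and 53.03 CPM in Rosa26 libraries. The difference was 0.07 ± 0.06 on the log2 scale, so the mRNA level gave no check of the genotype labels. Here and below ± beside CPM is the SD over 3 libraries. Beside a log2 value ± is a standard error worked back from the test. It is the size of the log2 fold change over the square root of its F statistic. Atf4 mRNA averaged 278 ± 6.57 CPM in Cebpg KO and 268 ± 12.5 CPM in Rosa26 libraries, adjusted p = 0.777. The summed CPM of 10 CD8 T cell markers was 4416 to 4463 in Cebpg KO and 4413 to 4503 in Rosa26 libraries, and none of the 10 passed the test. Other settings did give calls. With RLE scaling factors 2 of the markers were lower, and with upper-quartile factors 2 were higher and 1 lower. With the 9 untreated libraries alone 2 were higher and 2 lower. Markers of B cells (4 measured), myeloid cells (2), erythroid cells and platelets (3) and gamma delta T cells (4) gave no call in the test. Their summed levels were 17.8 to 19.6, 3.23 to 5.199, 3.23 to 5.33 and 159 to 165 CPM in Cebpg KO libraries, against 16.8 to 17.8, 2.93 to 3.26, 3.03 to 5.16 and 169 to 172 CPM in Rosa26 libraries. Cd4, Ms4a1, Csf1r, Adgre1 and Ncr1, which define several of these other types, were not analysed here. The libraries are bulk RNA, so fewer cells of a type and less RNA per cell cannot be told apart.

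The element bound by C/EBP-ATF dimers was searched for as TGATGNAA, on both strands, in RefSeq promoter windows of build GRCm38.p6 that run from 250 bases upstream to 50 bases downstream of a gene's start. It lay in 8 of the 23 windows (34.8%) found for a list of integrated stress response targets, in 2.69% of the 9635 windows of measured genes and in 4.51% of all 27025 windows. It lay in 3.62% of the windows of genes that fell and 2.2% of those of genes that rose. Of the 8 listed targets with the element, Asns passed the test and the other 7, Chac1 and Trib3 among them, did not. The windows printed are those of Asns and Pck2, which fell in Cebpg KO cells, and of Chac1 as an example of a gene that carries the element and did not pass. Capitals mark the match, which reads in reverse complement in Pck2 and Chac1, and each sequence runs 5′ to 3′ on the gene's strand.
Asns (chr6:7693195-7693262, minus strand, match 23 bases upstream of the start): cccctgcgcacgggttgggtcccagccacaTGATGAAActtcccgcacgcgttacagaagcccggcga
Pck2 (chr14:55540133-55540200, plus strand, match 103 bases upstream): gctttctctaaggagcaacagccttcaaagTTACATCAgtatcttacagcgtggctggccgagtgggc
Chac1 (chr2:119351019-119351086, plus strand, match 193 bases upstream): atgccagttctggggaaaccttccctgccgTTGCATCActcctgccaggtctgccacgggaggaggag
A match is a description of these letters and not evidence of binding.

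Cebpg KO and Rosa26 cells differed in many genes, mostly by little. With edgeR's quasi-likelihood test at a Benjamini-Hochberg adjusted p under 0.05, 735 of 14695 genes passed (5%), of which 398 were higher (2.71%) and 337 lower (2.29%) in Cebpg KO cells. These shares are the reference for the counts of list members below. A single call in a list is not read as a result about that list. The median size of a passing change was 0.35 on the log2 scale and 90% of them were under 0.76. Changes of at least 2-fold were 43 upward and 5 downward. The levels of the 2 groups did not overlap in 734 of the 735 genes, while over all genes 19.3% had every Cebpg KO library above every Rosa26 library and 20.6% had every one below. The fit used all 18 libraries. With the 9 untreated libraries alone 1826 genes were higher and 2190 lower, and all 735 were among them. The balance of directions depended on the scaling: 54.1% of calls were higher with TMM factors, 26.2% with RLE factors (402 higher, 1134 lower) and 57.1% with upper-quartile factors (576 higher, 432 lower). DESeq2, which also differs in its test and filter, gave 25.2% higher (502 higher, 1489 lower). Leaving out any 1 of the 6 libraries left 125 to 221 higher and 78 to 117 lower, and no called gene changed sign under any alternative.

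**Figure D1:**
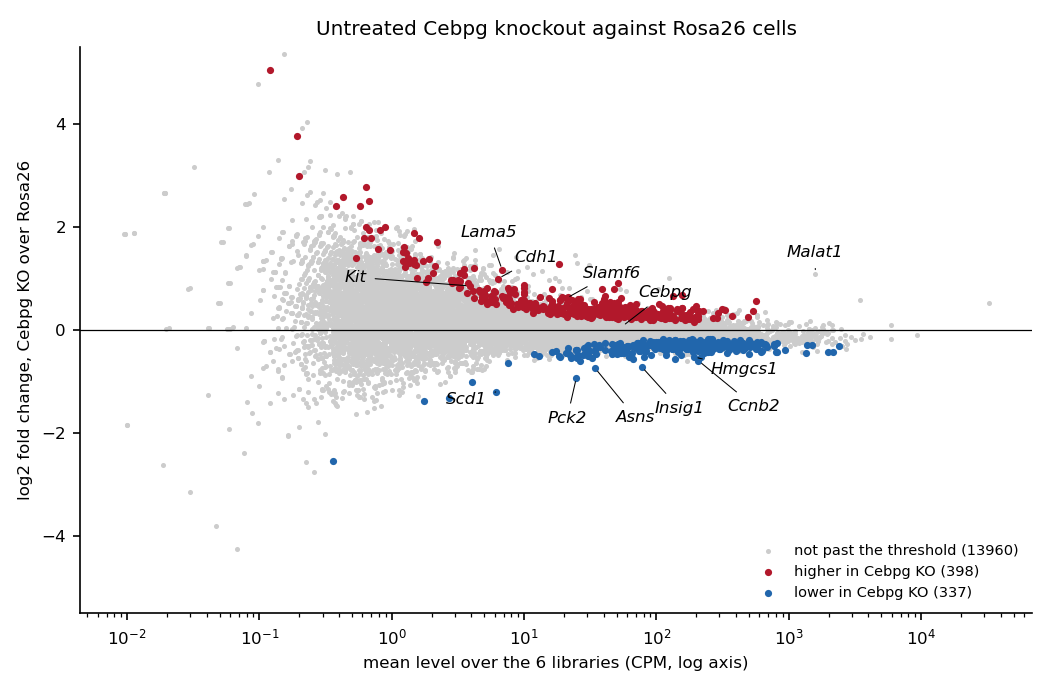
Log2 fold change of Cebpg KO over Rosa26 (vertical axis) against the mean level over the 6 untreated libraries (CPM, log axis), 1 point per gene. Red points are the 398 genes higher in Cebpg KO cells, blue points the 337 lower, grey points did not pass; most coloured points lie within 0.76 of 0, and Malat1, at 1.10, is grey.

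Among genes of the integrated stress response and amino acid synthesis, a few known targets of ATF4 passed as lower in Cebpg KO cells. Most did not pass in the fit of all 18 libraries. Pck2, the mitochondrial enzyme that makes phosphoenolpyruvate from oxaloacetate, had 19.0, 15.7 and 16.9 CPM in Cebpg KO libraries, against 30.9, 33.1 and 33.7 CPM in Rosa26 libraries. Asns, which makes asparagine from aspartate, had 25.99, 24.98 and 26.47 CPM in Cebpg KO libraries, against 40.5, 44.0 and 44.3 CPM in Rosa26 libraries. For both genes every Cebpg KO library was below every Rosa26 library, a condition of the rule by which the largest falls were named. Pck2 fell by 0.92 ± 0.10 (adjusted p = 0.000116) and Asns by 0.74 ± 0.09 (adjusted p = 0.000179) in edgeR's test, and both kept their calls when any 1 library was left out.

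Of 26 measured integrated stress response targets, 2 fell, 1 rose and 23 did not pass, with a median log2 fold change of -0.08 beside 0.01 over all genes (calls over all genes were 2.29% lower and 2.71% higher). The other member that fell was Eif4ebp1, an inhibitor of cap-dependent translation, at 29.5 ± 2.18 CPM in Cebpg KO and 38.7 ± 1.43 CPM in Rosa26 libraries (adjusted p = 0.0246, and 0.0365 to 0.105 when 1 library was left out). The member that rose was Rhbdd1, a rhomboid protease of the endoplasmic reticulum (22.2 ± 3.25 CPM in Cebpg KO and 17.7 ± 0.775 CPM in Rosa26 libraries, adjusted p = 0.0455), named because it passed. Chac1, which degrades glutathione, had 3.00, 1.84 and 0.945 CPM in Cebpg KO libraries, against 3.24, 3.29 and 3.76 CPM in Rosa26 libraries. Its groups did not overlap, as held for 20.6% of all genes in this direction, but the Cebpg KO values spread widely. Its adjusted p was 0.0928. Trib3, a pseudokinase that restrains ATF4, was level at 51.4 ± 3.80 CPM in Cebpg KO and 51.3 ± 1.16 CPM in Rosa26 libraries (adjusted p = 0.988). Atf5 (0.12 ± 0.16, adjusted p = 0.667) and Ddit3, which encodes the stress factor CHOP (0.20 ± 0.24, adjusted p = 0.636), had overlapping groups. With the 9 untreated libraries alone 6 of the 26 targets fell and 2 rose, where 2190 of all 14695 genes fell and 1826 rose.

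Genes of serine synthesis and folate one-carbon metabolism fell in 5 of 18 cases, with none rising and a median of -0.19, where 2.29% of all genes fell. Psat1, the serine pathway's aminotransferase, had 258, 261 and 258 CPM in Cebpg KO libraries, against 332, 337 and 335 CPM in Rosa26 libraries, a fall by 0.37 ± 0.07 (edgeR adjusted p = 0.00383). Mthfd2, a mitochondrial folate enzyme, had 127, 131 and 133 CPM in Cebpg KO libraries, against 157, 167 and 165 CPM in Rosa26 libraries, a fall by 0.32 ± 0.06 (adjusted p = 0.00343). These values were tightly grouped within each genotype and well apart between them. Phgdh, which catalyses the first step of serine synthesis, averaged 508 CPM in Cebpg KO and 658 CPM in Rosa26 libraries (adjusted p = 0.04005, and 0.0743 to 0.141 when 1 library was left out). The remaining members that fell were Sfxn1, a mitochondrial serine carrier (by 0.29), and Slc25a32, a mitochondrial folate carrier (by 0.31). Without any 1 library, 3 of the 18 passed.

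All 19 cytosolic aminoacyl-tRNA synthetases, which charge tRNAs with amino acids, had a negative sign (median -0.17), but only 3 passed: Lars1 (by 0.23), Tars1 (by 0.23) and Cars1 (by 0.20), and 0 to 2 passed when 1 library was left out. With RLE factors 12 of the 19 fell. Of 17 mitochondrial synthetases 1 passed, Wars2, which charges tryptophan and rose to 14.2 ± 0.905 CPM in Cebpg KO against 10.04 ± 0.879 CPM in Rosa26 libraries (0.50 ± 0.10, adjusted p = 0.00819). The median of these 17 was 0.03 and turned to -0.00057 with RLE factors. Got1, which interconverts aspartate and glutamate, was the single call among 16 genes of asparagine, proline and glutamate metabolism (72.1 CPM in Cebpg KO and 90.2 CPM in Rosa26 libraries, adjusted p = 0.0115, and 0.013 to 0.0666 when 1 library was left out). Gsr, which reduces oxidised glutathione, was the single call among 22 genes of the glutathione and thioredoxin systems (104 CPM in Cebpg KO and 123 CPM in Rosa26 libraries, adjusted p = 0.0311, and 0.0655 to 0.132 when 1 library was left out). Odc1 and Amd1, enzymes of polyamine synthesis, were the calls among 11 genes of polyamine metabolism. Odc1 fell by 0.41 ± 0.09 and Amd1 by 0.28 ± 0.08, with adjusted p-values of 0.0248 to 0.0563 and 0.0732 to 0.171 when 1 library was left out. With the 9 untreated libraries alone 14 of the 19 cytosolic synthetases fell, as did 7 of the 16 asparagine, proline and glutamate genes. In that fit 12 of the 22 glutathione and thioredoxin genes and 7 of the 11 polyamine genes fell, and no member of these lists rose. Of the 17 mitochondrial synthetases 4 rose and 2 fell. Over all 14695 genes that fit gave 1826 higher and 2190 lower.

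Of 19 measured amino acid transporters 4 rose and none fell (median 0.16), where 2.71% of all genes rose. Slc43a2, an exporter of large neutral amino acids, had 95.2, 99.8 and 99.3 CPM in Cebpg KO libraries, against 78.1, 74.3 and 75.9 CPM in Rosa26 libraries, a rise of 0.37 ± 0.06 (edgeR adjusted p = 0.00176). Slc38a9, a lysosomal arginine sensor upstream of mTORC1, had 23.5, 25.7 and 22.2 CPM in Cebpg KO libraries, against 14.9, 14.7 and 15.8 CPM in Rosa26 libraries. It rose by 0.65 ± 0.13 (adjusted p = 0.00889, and 0.0565 without Cebpg KO replicate 2). Slc1a4, a carrier of alanine, serine and cysteine named after its values were seen, had 11.4, 11.6 and 11.1 CPM in Cebpg KO libraries, against 7.81, 8.13 and 6.90 CPM in Rosa26 libraries. It rose by 0.58 ± 0.13 (adjusted p = 0.0152, and 0.0394 to 0.0693 when 1 library was left out). The remaining call was Slc38a2, a sodium-coupled carrier of small neutral amino acids (0.21 ± 0.06). The carriers Slc7a5, Slc3a2, Slc7a1 and Slc1a5 were within 0.06 of 0 on the log2 scale and did not pass. Without 1 library 1 to 3 of the 19 passed.

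**Figure D2:**
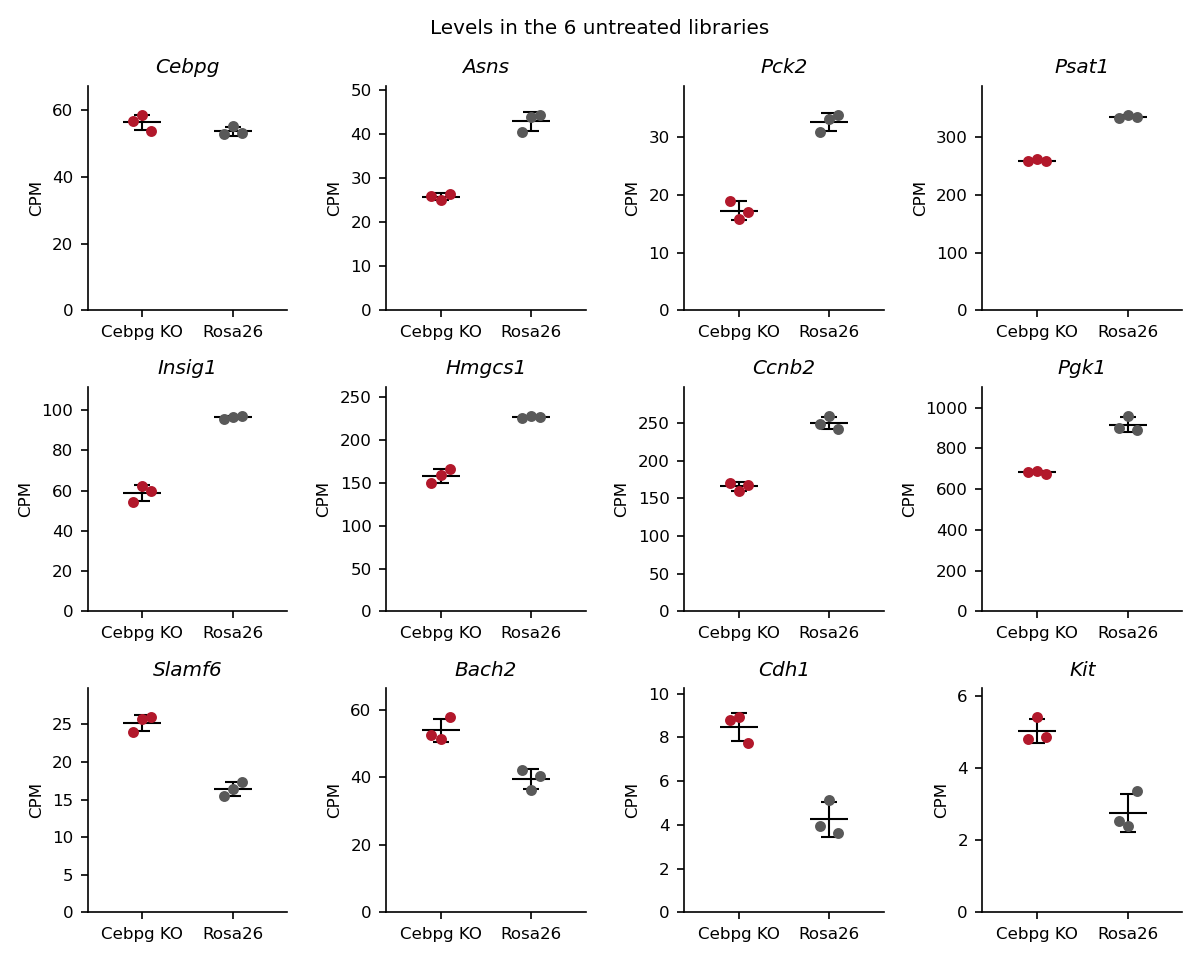
Level in CPM of 12 genes in each untreated library, Cebpg KO (red, left) and Rosa26 (grey, right), with the mean and SD of 3 libraries (black) and axes that start at 0. Cebpg itself overlaps between the groups, Asns, Pck2, Psat1, Insig1, Hmgcs1, Ccnb2 and Pgk1 are lower in every Cebpg KO library, and Slamf6, Bach2, Cdh1 and Kit are higher in every one.

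All 23 measured genes of cholesterol synthesis and its regulation had a negative sign (median -0.34). Of them 11 passed as lower and none as higher, where 2.29% of all genes fell. Insig1, which holds the sterol-sensing SCAP-SREBP complex in the endoplasmic reticulum, had 54.4, 62.2 and 59.8 CPM in Cebpg KO libraries, against 95.4, 96.6 and 96.9 CPM in Rosa26 libraries, a fall by 0.71 ± 0.09 (edgeR adjusted p = 0.000345). Hmgcs1, which makes HMG-CoA, had 149, 159 and 166 CPM in Cebpg KO libraries, against 225, 227 and 226 CPM in Rosa26 libraries, a fall by 0.52 ± 0.07 (adjusted p = 0.000474). Idi1, the isomerase of isopentenyl diphosphate, fell by 0.55 ± 0.09 (54.0 CPM in Cebpg KO and 79.3 CPM in Rosa26 libraries, adjusted p = 0.00295). For all 3 genes no Cebpg KO library reached any Rosa26 library, a condition of the naming rule for Insig1 and Idi1 as largest falls. Other calls, named because they passed, included the enzymes Pmvk (by 0.48), Fdft1 (by 0.38), Sqle (by 0.35), Cyp51 (by 0.47) and Msmo1 (by 0.40) and the sterol carrier Stard4 (by 0.35). Without 1 library 5 to 7 of the 23 passed, and 18 passed with the 9 untreated libraries alone.

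Fatty acid synthesis genes fell in 6 of 13 cases with none rising (median -0.23), where 2.29% of all genes fell. Acly, which makes cytosolic acetyl-CoA, had 341, 353 and 349 CPM in Cebpg KO libraries, against 444, 428 and 442 CPM in Rosa26 libraries, a fall by 0.33 ± 0.06 (edgeR adjusted p = 0.0033). The desaturase Scd2 had 283, 321 and 321 CPM in Cebpg KO libraries, against 392, 404 and 405 CPM in Rosa26 libraries, a fall by 0.38 ± 0.07 (adjusted p = 0.00538). Fads2, a desaturase of polyunsaturated fatty acids, fell by 0.59 ± 0.11 to 21.3 ± 0.589 CPM, against 32.0 ± 1.93 CPM in Rosa26 libraries. Scd1, a paralog of Scd2, had the lowest log2 fold change among the genes named by size, at 3.79, 4.15 and 3.17 CPM in Cebpg KO libraries, against 8.29, 8.43 and 8.87 CPM in Rosa26 libraries. It fell by 1.199 ± 0.268 (adjusted p = 0.015, and 0.0509 to 0.0769 when 1 library was left out). Fasn, the fatty acid synthase (by 0.31), and Srebf1, which encodes the lipogenic factor SREBP1 (by 0.23), also fell.

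Glycolysis genes fell in 11 of 22 cases with none rising (median -0.26), where 2.29% of all genes fell. Pgk1, the first ATP-yielding enzyme of the pathway, had 684, 687 and 676 CPM in Cebpg KO libraries, against 901, 957 and 888 CPM in Rosa26 libraries, a fall by 0.42 ± 0.08 (edgeR adjusted p = 0.00484). Slc16a3, a lactate exporter, had 45.9, 46.2 and 45.1 CPM in Cebpg KO libraries, against 62.6, 60.4 and 64.3 CPM in Rosa26 libraries. It fell by 0.45 ± 0.10 (adjusted p = 0.0151, and 0.0482 to 0.0646 when 1 library was left out). The further calls were Hk2, Gpi1, Pfkl, Tpi1, Gapdh, Pgam1, Eno1 and Ldha, enzymes along the pathway, and Pdk1, a kinase that restrains pyruvate dehydrogenase, with falls by 0.22 to 0.45. These calls were close to the threshold: without 1 library 1 or 2 of the 22 passed, and 16 passed with the 9 untreated libraries alone. None of 35 nuclear genes of oxidative phosphorylation passed (median -0.23), with 7 lower under RLE factors and 27 lower with the 9 untreated libraries. Among them Atp5f1b, a subunit of the ATP synthase, had 1396, 1325 and 1376 CPM in Cebpg KO libraries, against 1705, 1728 and 1678 CPM in Rosa26 libraries (adjusted p = 0.0825). No mitochondrially encoded mRNA passed (10 measured, median 0.04), or 3 as higher with the 9 untreated libraries.

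Of 32 measured cell cycle genes 17 fell and none rose (median -0.29), where 2.29% of all genes fell. Ccnb2, a mitotic cyclin, had 170, 159 and 168 CPM in Cebpg KO libraries, against 249, 259 and 243 CPM in Rosa26 libraries, a fall by 0.59 ± 0.08 (edgeR adjusted p = 0.000534). Cenpa, the histone variant of centromeres, had 214, 199 and 209 CPM in Cebpg KO libraries, against 292, 268 and 281 CPM in Rosa26 libraries, a fall by 0.43 ± 0.06 (adjusted p = 0.000715). The other calls were the cyclins Ccnb1 (by 0.51) and Ccna2 (by 0.40), the kinases Cdk1, Plk1, Aurkb, Bub1 and Bub1b, the motors Kif11, Kif20a and Cenpe, and Cdc20, Birc5, Tpx2, Cenpf and Top2a, with falls by 0.27 to 0.42. Mki67, a marker of proliferating cells, averaged 1212 CPM in Cebpg KO and 1366 CPM in Rosa26 libraries and did not pass (-0.17 ± 0.07, adjusted p = 0.143, and 0.00151 with the 9 untreated libraries). Without 1 library 12 to 14 of the 32 passed. Of 20 nucleotide synthesis genes 4 fell: Rrm2 and Rrm1, the subunits of ribonucleotide reductase, Umps, which makes uridine monophosphate, and Prps1, which makes phosphoribosyl pyrophosphate (by 0.26 to 0.30). Without 1 library 0 to 2 of the 20 passed, and with RLE factors 14 fell. H2ax, a histone variant phosphorylated at DNA breaks, fell by 0.55 ± 0.10 (111 ± 5.87 CPM in Cebpg KO and 163 ± 4.59 CPM in Rosa26 libraries, adjusted p = 0.00447). Cdkn3, a phosphatase of cyclin-dependent kinases, fell by 0.54 ± 0.11 (adjusted p = 0.00748, and 0.0589 without Cebpg KO replicate 2). None of 27 replication-dependent histone genes, whose reads may be shared among copies, passed (1 higher and 3 lower with the 9 untreated libraries).

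Of 20 genes linked to naive and memory CD8+ T cells 7 rose and 1 fell (median 0.18), where 2.71% of all genes rose and 2.29% fell. Slamf6, a receptor of the SLAM family, had 24.0, 25.7 and 25.9 CPM in Cebpg KO libraries, against 15.5, 16.4 and 17.3 CPM in Rosa26 libraries, a rise of 0.62 ± 0.09 (edgeR adjusted p = 0.00133). Bach2, a repressor that restrains effector differentiation, had 52.5, 51.4 and 57.8 CPM in Cebpg KO libraries, against 42.03, 36.2 and 40.4 CPM in Rosa26 libraries, a rise of 0.45 ± 0.08 (adjusted p = 0.00566). Both genes kept their calls without any 1 library. Further members that rose included the lymph node homing receptor Ccr7 (0.42), the interleukin-7 receptor chain Il7r (0.35), the factor Klf3 (0.42) and the chemokine receptor Ccr9 (0.72). Dapl1 was the member that fell (by 0.48). Tcf7, which encodes the memory-associated factor TCF-1, did not pass (-0.10 ± 0.08, adjusted p = 0.471). Without 1 library 4 to 6 of the 20 rose and none fell.

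Effector genes gave no call among 18 measured (median -0.06, with 2 lower under RLE factors and 1 higher and 3 lower with the 9 untreated libraries). Gzmb, the cytotoxic granzyme B, had 1118, 1119 and 1134 CPM in Cebpg KO libraries, against 1302, 1273 and 1272 CPM in Rosa26 libraries. The groups did not overlap, as held for 20.6% of all genes in this direction. The difference of -0.19 ± 0.08 had an edgeR adjusted p of 0.158, or 0.042 with RLE factors and 0.000153 with the 9 untreated libraries. Ifng was under 1.1 CPM in every library. None of 15 checkpoint and exhaustion genes passed (3 higher with upper-quartile factors, 4 higher and 2 lower with the 9 untreated libraries). None of 17 immediate early genes of T cell receptor signalling passed (2 lower with the 9 untreated libraries). Batf, a leucine zipper factor that drives effector programmes, fell by 0.55 ± 0.11 (20.3 ± 1.94 CPM in Cebpg KO and 29.7 ± 2.07 CPM in Rosa26 libraries, adjusted p = 0.00649). It was 1 of 3 calls among 33 listed leucine zipper genes, where 2.29% of all genes fell and 2.71% rose. The others were Bach2, which rose, and Atf1, a relative of CREB that fell by 0.24 and is named because it passed. Crebl2, a leucine zipper gene described below, is not on that list. Irf8, a transcription factor that effector T cells induce, fell by 0.35 ± 0.08 as the single call among 28 interferon response genes (adjusted p = 0.0171, and 0.0536 to 0.0698 when 1 library was left out). Eomes, a T-box factor of both memory CD8+ T cells and NK cells, fell by 0.41 ± 0.09 (63.7 CPM in Cebpg KO and 84.7 CPM in Rosa26 libraries, adjusted p = 0.0131, and 0.027 to 0.068 when 1 library was left out). The other NK marker measured, Nkg7, did not pass, and the pair summed to 266 to 268 CPM in Cebpg KO and 274 to 290.0 CPM in Rosa26 libraries. Foxp3, the factor of regulatory T cells, had 5.83, 8.46 and 7.63 CPM in Cebpg KO libraries, against 4.80, 4.73 and 4.94 CPM in Rosa26 libraries (0.60 ± 0.15, adjusted p = 0.0315, and 0.0204 to 0.16 when 1 library was left out). The 3 CD4 T cell markers measured summed to 19.1 to 24.9 CPM in Cebpg KO and 20.9 to 22.8 CPM in Rosa26 libraries, and their part in the other results was not tested.

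Receptors of cytokines and costimulation gave 4 rises among 23 genes and no fall (median 0.17), where 2.71% of all genes rose. The 4 were Il21r (0.21), Il10ra (0.25), Tgfbr1 (0.29) and Tnfrsf4, which encodes OX40 (0.49). Between 0 and 2 of them passed when 1 library was left out, a count of 0 without Cebpg KO replicate 2, Rosa26 replicate 1 or Rosa26 replicate 3. Among 22 p53 targets 3 rose and none fell, with a median of 0.08 and a negative sign in 8 of the 22. Zmat3, an RNA-binding protein, had 57.4, 59.3 and 60.7 CPM in Cebpg KO libraries, against 42.5, 46.5 and 43.6 CPM in Rosa26 libraries, a rise of 0.42 ± 0.07 (edgeR adjusted p = 0.00155). Trp53inp1 rose by 0.24 ± 0.05 (adjusted p = 0.0119, and 0.0364 to 0.0534 when 1 library was left out), and Fas, the death receptor, by 0.53 ± 0.12.

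The genes with the largest rises by the naming rule were mostly low in level and of mixed kinds. Kit, the receptor of stem cell factor, had 4.81, 5.41 and 4.86 CPM in Cebpg KO libraries, against 2.52, 2.39 and 3.37 CPM in Rosa26 libraries, a rise of 0.86 ± 0.16 (edgeR adjusted p = 0.00501). Cdh1, the adhesion protein E-cadherin, had 8.78, 8.92 and 7.76 CPM in Cebpg KO libraries, against 3.96, 5.14 and 3.65 CPM in Rosa26 libraries, a rise of 1.00 ± 0.16 (adjusted p = 0.00182). Lama5, a laminin chain, had 9.23, 8.23 and 11.01 CPM in Cebpg KO libraries, against 3.96, 3.77 and 4.88 CPM in Rosa26 libraries, a rise of 1.17 ± 0.15 (adjusted p = 0.000431). Every Cebpg KO value of these 3 genes was above every Rosa26 value, as the naming rule required, and their calls held without any 1 library. Igha, the constant region of immunoglobulin A heavy chains, had 6.12, 6.45 and 5.06 CPM in Cebpg KO libraries, against 1.86, 2.51 and 3.26 CPM in Rosa26 libraries, a rise of 1.21 ± 0.19 (adjusted p = 0.00182). The 4 B cell markers measured beside it summed to 17.8 to 19.6 CPM in Cebpg KO and 16.8 to 17.8 CPM in Rosa26 libraries, and none passed. Patj, a scaffold of tight junctions (0.87), Carns1, a carnosine synthase (0.80), Crebl2, a leucine zipper protein (0.80), and Fsd1l (0.77) also rose and kept their calls. Gbp11 (0.81), whose reads may be shared with near-identical copies, Cacna2d4 (0.78), Slc27a1 (0.77) and Map4k3 (0.76) rose as well, with adjusted p-values of 0.0249 to 0.167 over the fits without 1 library. Among the largest falls, Zfp429 lost its call in all 6 of those fits (0.0536 to 0.185), and the pseudogene Eif4a-ps4, whose reads may belong to its parent gene, lost it in 4 of the 6 (0.0277 to 0.139).

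The remaining lists gave few calls, and with 2.71% of all genes higher and 2.29% lower, a single call in such a list is not read as a result about the list. Nolc1 and Bop1, factors of ribosome assembly, fell among 21 genes of ribosome biogenesis (by 0.29 and 0.25), with adjusted p-values of 0.0566 to 0.147 when 1 library was left out. None of 55 ribosomal protein genes passed (median -0.10), or 13 as lower with the 9 untreated libraries. Sdf2l1, an endoplasmic reticulum protein, was the single call among 20 chaperone and folding genes (by 0.29, adjusted p = 0.0311, and 0.0623 to 0.146 when 1 library was left out). Npc1, a lysosomal cholesterol transporter, was the single call among 27 autophagy and lysosome genes (0.26, adjusted p = 0.0386, and 0.055 to 0.171 when 1 library was left out). Of 9 measured genes that lie within 500 kb of Cebpg in the GRCm38 annotation 1 passed. Faap24, a Fanconi anaemia protein 336 kb away, fell by 0.45 ± 0.12 (18.002 CPM in Cebpg KO and 24.615 CPM in Rosa26 libraries, adjusted p = 0.0341). Its adjusted p was 0.0665 to 0.139 without 1 library, and Atf4 KO cells differed from the same Rosa26 libraries by -0.34 in it. Nudt19, a Nudix hydrolase gene 491 kb away, averaged 57.1 ± 2.66 CPM in Cebpg KO and 73.9 ± 2.70 CPM in Rosa26 libraries and did not pass (-0.37 ± 0.12, adjusted p = 0.0822). None of 7 genes at the Rosa26 locus passed. With the 9 untreated libraries alone, 13 genes of ribosome biogenesis fell and 1 rose, and 4 chaperone and folding genes fell and 1 rose. In that fit 3 autophagy and lysosome genes fell and 1 rose, and at the Rosa26 locus 1 gene rose and 1 fell. Over all 14695 genes it gave 1826 higher and 2190 lower.

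**Figure D3:**
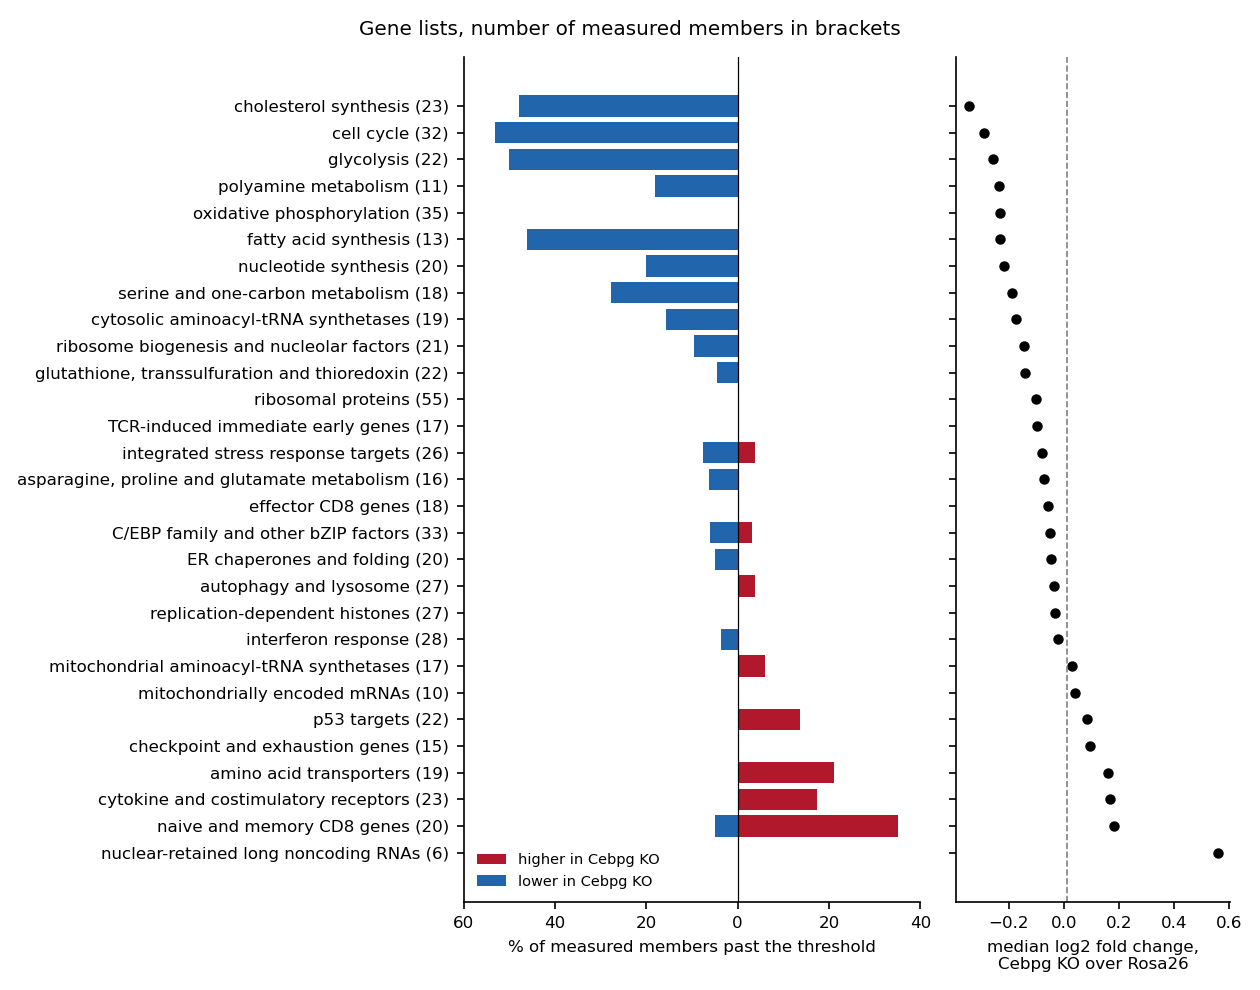
Left, the percentage of measured members of each gene list that were higher (red, to the right of 0) or lower (blue, to the left) in Cebpg KO cells. Right, the median log2 fold change of the same members, with all genes (0.01) as a dashed line. Marker lists of other cell types and the 2 locus lists are not drawn. In the left plot cell cycle, glycolysis, cholesterol synthesis and fatty acid synthesis reach furthest to the lower side and naive and memory genes to the higher side, and in the right plot the 6 nuclear-retained RNAs have the highest median (0.56).

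Library composition differed between the groups as well. Genes of the GENCODE class TEC, transcribed regions whose status as genes the annotation leaves unsettled, took 0.199% to 0.213% of counts in Cebpg KO and 0.09997% to 0.133% in Rosa26 libraries, a ratio of 1.76 (exact two-sided permutation p = 0.1, the smallest that 3 against 3 libraries allow). Of 829 such genes 774 had a positive sign (median 0.79), though 5 passed singly. Malat1, a nuclear RNA, had 2104, 2364 and 2048 CPM in Cebpg KO libraries, against 1023, 858 and 1168 CPM in Rosa26 libraries (1.10 ± 0.44, edgeR adjusted p = 0.153, and 0.00201 with the 9 untreated libraries). Neat1, the RNA of paraspeckles, had 130 ± 1.16 CPM in Cebpg KO and 75.1 ± 3.85 CPM in Rosa26 libraries and did not pass (adjusted p = 0.31). Its groups did not overlap, as held for 19.3% of all genes in this direction. Mitochondrially encoded genes took 1.41% to 1.52% of counts in Cebpg KO and 1.24% to 1.37% in Rosa26 libraries. The protein-coding genes that rose had a median genomic span of 40.6 kb and those that fell 21.5 kb, beside 23.3 kb over all (GRCm38). Of annotated genes that rose 12.3% were not protein-coding, against 0.595% of those that fell and 20.5% of all. These measures separate the same untreated libraries as the genotype does, so their part in the rises and falls above cannot be told apart from it.

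The halofuginone libraries, 3 Cebpg KO and 3 Rosa26 cultured with the drug, share no library with the untreated comparison, although they share its fit. Halofuginone inhibits prolyl-tRNA synthetase and so mimics a shortage of proline. One Cebpg KO (replicate 3) and 1 Rosa26 library (replicate 2) of this set stood apart from the rest of their groups in TEC and Malat1 counts. In these libraries 2773 genes passed between Cebpg KO and Rosa26 (18.9%), 844 higher (5.74%) and 1929 lower (13.1%), or 3402 in all without the libraries that stand apart. The balance of directions moved with the processing, to 1543 higher and 1500 lower with upper-quartile factors and 1425 higher and 1729 lower among genes of at least 5 CPM. Of the 398 genes that rose without the drug, 340 had a positive sign with it, 162 rose and 9 fell. Of the 337 that fell without the drug, 314 had a negative sign with it, 235 fell and 2 rose. Over all genes 48.1% had a positive and 51.9% a negative sign. Calls in the same direction numbered 397, which is 54% of the untreated calls and 14.3% of the calls with the drug (424, 57.7% and 12.5% without the libraries that stand apart). The median log2 fold change with the drug was 0.21 for the genes that rose, -0.36 for those that fell and -0.02 over all. The log2 fold changes of the 735 genes had Pearson's r = 0.645 across genes, which are not independent replicates.

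**Figure D4:**
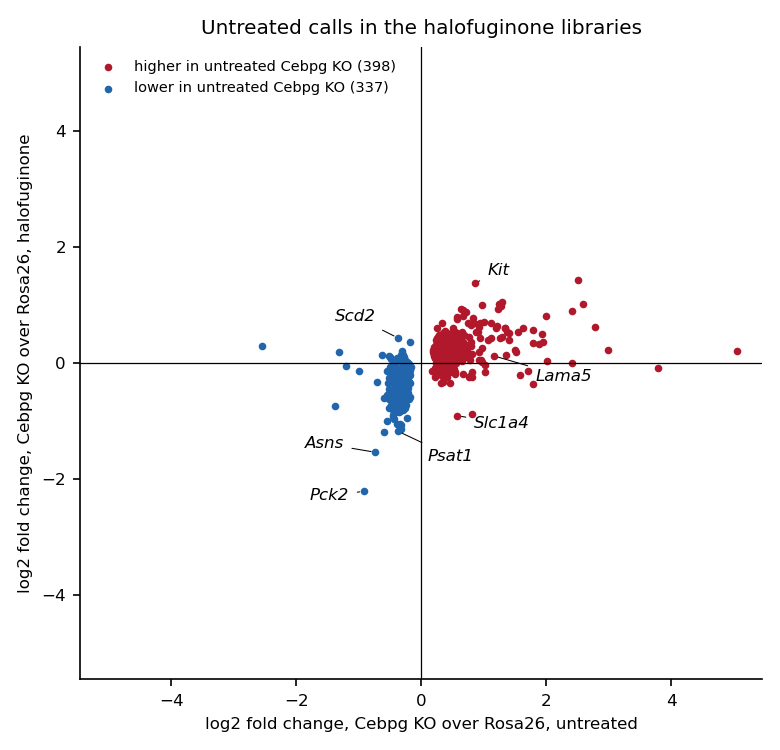
Log2 fold change of Cebpg KO over Rosa26 with halofuginone (vertical) against that without it (horizontal) for the 735 genes called without the drug. Red genes rose and blue genes fell without the drug; 340 of 398 red points lie above 0 and 314 of 337 blue points below 0, with Slc1a4 and Scd2 among those on the opposite side.

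The difference between the drug and untreated effects was tested as an interaction, which 68 of the 735 genes passed, or 180 without the libraries that stand apart. The test uses the untreated values that picked the 735 genes, which favours an interaction of the opposite sign. The 68 are therefore not read against the share over all genes. Over all 14695 genes the interaction passed for 363 (2.47%), 55 higher (0.374%) and 308 lower (2.1%). The share of these calls that were higher, 15.2%, was 40.7% with RLE factors, 33.1% with upper-quartile factors and 44.2% with DESeq2. Without the libraries that stand apart it was 24.1%, without Cebpg KO halofuginone replicate 2 alone 38.5% and without Rosa26 halofuginone replicate 2 alone 47.2%, so the balance of directions is not settled. Pck2 had 11.7, 10.9 and 13.4 CPM in Cebpg KO libraries with the drug, against 50.02, 59.9 and 57.3 CPM in Rosa26 libraries with the drug, a fall by 2.21 that was further than the untreated fall by 0.92 (edgeR interaction adjusted p = 1.73e-05). Asns had 31.1, 27.1 and 31.3 CPM in Cebpg KO libraries with the drug, against 84.5, 94.8 and 81.3 CPM in Rosa26 libraries with the drug, a fall by 1.54 (interaction adjusted p = 0.000683). With the drug 19 of the 26 integrated stress response targets and 17 of the 19 cytosolic synthetases fell, against 2 and 3 without it, and 13 and 9 of them passed the interaction test. Cell cycle genes fell in 30 of 32 cases with the drug and 17 without it, with 6 passing the interaction test, and cholesterol synthesis genes in 16 and 11 of 23 cases, with 2 passing. Slc1a4 turned round: it had 22.3, 18.3 and 18.7 CPM in Cebpg KO libraries with the drug, against 35.2, 39.9 and 36.6 CPM in Rosa26 libraries with the drug (interaction -1.49, adjusted p = 3.25e-05).

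Atf4 KO cells were compared with the same 3 Rosa26 libraries, so their differences share the control values and are given only side by side. In that comparison 3827 genes passed (26%). Atf4 mRNA was 301, 281 and 274 CPM in Atf4 KO libraries, against 281, 267 and 256 CPM in Rosa26 libraries (0.09 ± 0.10, edgeR adjusted p = 0.549). The mRNA level thus gave no check of the Atf4 KO labels either. The direct test of Cebpg KO against Atf4 KO leaves Rosa26 values out of its contrast, although the Rosa26 libraries share its fit. It passed for 488 genes (3.32%), 295 higher and 193 lower in Cebpg KO cells, and for 1804 with the 9 untreated libraries alone. Pck2 had 19.0, 15.7 and 16.9 CPM in Cebpg KO libraries, against 19.8, 17.8 and 18.4 CPM in Atf4 KO libraries, a difference of -0.12 ± 0.10 with overlapping groups (edgeR adjusted p = 0.699). Asns had 25.99, 24.98 and 26.47 CPM in Cebpg KO libraries, against 19.97, 23.20 and 20.80 CPM in Atf4 KO libraries, and the difference of 0.27 ± 0.09 did not pass (adjusted p = 0.112). Neither result shows that the 2 knockouts act alike on these genes.

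Between Cebpg KO and Atf4 KO cells, cholesterol synthesis genes passed in 13 of 23 cases, cell cycle genes in 20 of 32, glycolysis genes in 8 of 22 and fatty acid synthesis genes in 6 of 13, all higher in Cebpg KO cells (2.01% over all genes). Insig1 had 54.4, 62.2 and 59.8 CPM in Cebpg KO libraries, against 40.2, 44.0 and 45.2 CPM in Atf4 KO libraries, a difference of 0.45 ± 0.09 (edgeR adjusted p = 0.00971). Naive and memory genes passed as lower in Cebpg KO cells in 10 of 20 cases and p53 targets in 7 of 22 (1.31% over all genes), among them Zmat3, which differed by -0.47 ± 0.06 (adjusted p = 0.000434). Kit had 4.81, 5.41 and 4.86 CPM in Cebpg KO libraries, against 6.78, 9.64 and 9.41 CPM in Atf4 KO libraries (-0.77 ± 0.14, adjusted p = 0.0042). Slc1a4 had 11.4, 11.6 and 11.1 CPM in Cebpg KO libraries, against 4.99, 5.37 and 3.44 CPM in Atf4 KO libraries, and their difference was 1.30 ± 0.14 (adjusted p = 4.2e-05). Rosa26 libraries, at 6.90 to 8.13 CPM, lay between the 2 knockouts for this gene.

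**Figure D5:**
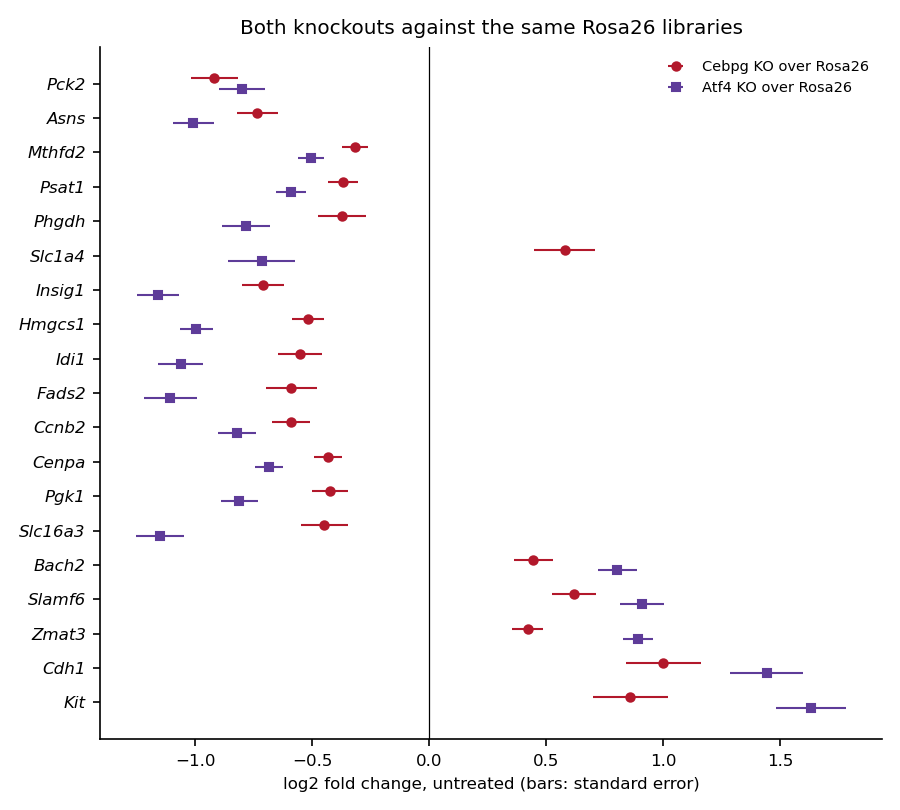
Log2 fold change over the same 3 untreated Rosa26 libraries for Cebpg KO (red circles) and Atf4 KO (purple squares) for 19 genes. Bars are standard errors worked back from the F statistic of the test. Slc1a4 lies at 0.58 in Cebpg KO and -0.72 in Atf4 KO cells, and Pck2 lies at -0.92 and -0.80.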

How the data were processed

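PolyA RNA of 18 libraries, 3 in each of 6 groups, was sequenced from a directional dUTP library, per the labels' protocols. FastQC, MultiQC, Trimmomatic, STAR, HTSeq, edgeR and build GRCm39 are named in the submitters' processing notes, without their versions, a strand setting or an annotation release. Values in the deposited table are raw gene counts, per the file headers, already filtered on low values (lowest third-highest level 0.597 CPM). All its sample columns were mapped. Blank names (449) were filled by identifier for 431 genes.

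All 18 libraries entered 1 fit with 6 group terms (edgeR 4.0.16, R 4.3.3, TMM factors, robust quasi-likelihood F test, Benjamini-Hochberg over 14695 genes, threshold 0.05), tested on simulated data. Alternatives were other scalings, a level minimum of 5 CPM, fewer libraries, a replicate block and DESeq2 1.42.0. The members of the 38 gene lists (675 of 751 measured) and the rule for named genes were chosen with earlier results of these data known. The rule takes Cebpg, Atf4, a panel, 2 genes of the smallest p per list, and the 12 highest and 12 lowest fold changes of at least 5 CPM. These fold changes had to pass the threshold and have groups that did not overlap, so that non-overlap is no further support for them. Predicted gene names were left out of them. Genes outside the rule are named after their values were seen, most because they passed. A few of them, such as Neat1, Nudt19 and Slc7a5, did not pass. Overlapping antisense genes and near-identical copies are uncertain. Intervals between libraries cover no batch, since none is given. Some genes of the lists are not reported here.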

Additional observations from a re-analysis of the deposited data

Results flagged for a closer look

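For 20 named genes the effect of Cebpg KO differed between the halofuginone and the untreated libraries in a test of the difference itself (edgeR interaction, Benjamini-Hochberg adjusted over all genes). Each value is the log2 effect of the knockout over Rosa26 with the drug minus that without it. Some of the 20, Lama5 and Fsd1l among them, were named for a large untreated effect, which favours a value of the opposite sign. The stress genes Atf5 (-2.13, adjusted p = 5.83e-06) and Trib3 (-2.04, adjusted p = 7.1e-07) and the T cell factor Zbtb7b (-1.71, adjusted p = 1.49e-05) were near 0 without the drug and fell with it. Cebpg itself did the same (-0.86, adjusted p = 6.72e-06). Genes that fell without the drug and fell further with it were Pck2 (-1.30), Psat1 (-0.81), Asns (-0.80), Mthfd2 (-0.74), Lars1 (-0.71), Eif4ebp1 (-0.66), Sdf2l1 (-0.52), Got1 (-0.49), Rrm2 (-0.43) and Gsr (-0.39), with adjusted p-values of 1.34e-05 to 0.0209. Gbp11 (-1.69, adjusted p = 0.00145) and Slc1a4 (-1.49, adjusted p = 3.25e-05) rose without the drug and fell with it. Lama5 (-1.04, adjusted p = 0.00539) and Fsd1l (-1.004, adjusted p = 0.00206) rose without the drug and did not pass with it. Tcf7 (0.47, adjusted p = 0.0378) did not pass without the drug and rose with it, and Scd2 (0.81, adjusted p = 7.03e-05) fell without it and rose with it. All 20 kept their sign and passed without the 3 halofuginone libraries that stand apart.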

How the results depend on the processing

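The counts of genes past the threshold moved with the libraries, the scaling and the tool, and beyond the smaller number of libraries or genes in a fit the causes were not tested. In the untreated comparison of Cebpg KO with Rosa26, genes lower numbered 1134 with RLE factors, 686 among genes of at least 5 CPM, 206 with the replicate block and 1489 with DESeq2, against 337. Genes higher and lower were 1826 and 2190 with the 9 untreated libraries, 1835 and 2278 with the 6 compared libraries, and 1836 and 2093 without the 3 halofuginone libraries that stand apart, an alternative chosen after seeing the data. Without 1 library 125 to 221 genes were higher and 78 to 117 lower, fewest without Cebpg KO replicate 2. Same-numbered libraries of the 2 groups did not deviate together (correlations of 0.02, -0.03 and 0.005), so the numbers do not pair them, and the block left 301 higher and 206 lower. The halofuginone comparison gave 1775 to 2872 genes without 1 library. Atf4 KO against Rosa26 gave 6189 genes with 9 and 6086 with 6 libraries, 6158 without the libraries that stand apart and 2756 to 3149 without 1 library. Cebpg KO against Atf4 KO gave 847 genes of at least 5 CPM, 1804 with 9 and 1716 with 6 libraries, 1737 without the libraries that stand apart, 910 with DESeq2 and 160 to 264 without 1 library. The interaction gave 558 genes of at least 5 CPM, 1051 without the libraries that stand apart, 629 with DESeq2 and 210 to 434 without 1 library. Of 60 named genes past the threshold, 28 kept the call without each library in turn and 14 lost it in all 6 such fits. The ratios of TEC and Malat1 shares were 1.64 to 1.88 and 2.06 to 2.41 without 1 library. The simulated comparison took its spread from the fit of all 18 libraries. In it, 30% to 38% of genes changed by 0.5 and 66% to 68% of genes changed by 1 on the log2 scale were called. Each share rests on 50 changed genes. The share of changes of these sizes missed in the measured libraries was not tested. The fits with the 9 untreated or the 6 compared libraries, which called more genes, were not simulated.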

Other observations

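Among genes with a mean of at least 50 CPM over both groups, the largest passing rises included several genes outside the lists. They are named here after their values were seen (± is the standard error worked back from the test). Utrn, which encodes the large cytoskeletal protein utrophin, averaged 192 CPM in Cebpg KO and 119 CPM in Rosa26 libraries (0.69 ± 0.12). Mir142hg, the host transcript of a microRNA of blood cells, averaged 165 CPM in Cebpg KO and 104 CPM in Rosa26 libraries (0.67 ± 0.09), and mt-Rnr1, the small mitochondrial ribosomal RNA, averaged 679 CPM in Cebpg KO and 458 CPM in Rosa26 libraries (0.57 ± 0.15). Gabbr1, Atxn1 and Akap9 rose by 0.51 to 0.63. With halofuginone, Utrn (0.49, adjusted p = 0.0083) and mt-Rnr1 (0.75, adjusted p = 0.00175) also rose in Cebpg KO over Rosa26 libraries by edgeR, and Mir142hg did not pass (0.15, adjusted p = 0.247).

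On the lower side, the largest passing falls at this level included Cdkn2c, an inhibitor of cyclin-dependent kinases, at 51.4 CPM in Cebpg KO and 73.9 CPM in Rosa26 libraries (-0.52 ± 0.08), and Pimreg, a mitotic regulator, at 66.5 CPM in Cebpg KO and 95.4 CPM in Rosa26 libraries (-0.52 ± 0.10). Both also fell with halofuginone (-0.78 and -0.44).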
